A study of Triticum turgidum subsp. durum with 96 samples.

Results

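The response of the developing head of EGA Bellaroi to water deficit was described from 12 small RNA libraries of the 96 in the series, 6 from stressed heads (water deficit stress group) and 6 from control heads (control group), taken by the genotype, tissue and treatment in the sample labels. EGA Bellaroi is a durum wheat variety that the labels class as sensitive to water deficit stress. The stressed plants stood for 15 d at 6% soil water content, starting at the booting stage, and the control plants were kept at 12% over the same time. Each library came from the head of 1 plant, and the labels number the plants and divide them between 2 growing seasons, with 3 plants per treatment and season, so the replicates are written here as 1-a to 1-c and 2-a to 2-c. A pair of files was read for these libraries, one with 110 conserved miRNAs in RPM (reads per 1 M small RNA reads, Approach #1) and one with hairpins that match no known mature miRNA in log2 CPM (counts per 1 M, Approach #2). The other heads and the flag leaves of EGA Bellaroi, 12 libraries for each genotype and organ, were used for the spread and for the comparisons of the response.

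Plant miRNAs are cut from hairpin transcripts by Dicer-like enzymes, loaded into ARGONAUTE proteins and pair almost fully with their target transcripts, which are then cut or kept from translation. At the booting stage the head is still growing inside the leaf sheath, and families such as miR319 (TCP factors), miR396 (growth regulating factors), miR166 (HD-ZIP III factors) and miR159 (GAMYB factors) act in its meristems and floral organs. The families miR397, miR398, miR408 and miR528 target laccases, copper superoxide dismutases, plantacyanins and other copper proteins, and in Arabidopsis and rice several of them accumulate when copper is short.

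The 12 libraries held 0.714 to 5.39 M reads (median 3.08) in stressed heads and 2.36 to 36.1 M (median 3.35) in control heads, a difference in mean log2 depth of -1.17 (two-sided exact permutation test, p = 0.19). The stressed libraries 1-a and 2-b held under 1 M reads, and in 1-a a single read was worth 1.40 RPM. The 4 miRNAs used as marks of the head were higher in all 12 heads than in the 12 flag leaves of EGA Bellaroi for 3 of the 4, for example Bdi-miR319b with 215 to 1197 RPM in heads and 2.86 to 15.7 RPM in flag leaves. The 4 miRNAs used as marks of the flag leaf summed to 18.0 to 426 RPM (median 184) in stressed heads, to 8.91 to 192 RPM (median 27.9) in control heads and to 259 to 4478 RPM in flag leaves. Of these marks, Bdi-miR827-5p and Osa-miR1432 separated the organs, while Bdi-miR5200 and Zma-miR398b overlapped between heads and flag leaves. Bdi-miR5200 and Zma-miR398b also had large changes between the head groups, given below. The head marks summed to 777 to 1128 RPM in stressed heads and 622 to 1717 RPM in control heads.

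The mature sequences that the results turn on are shown as the deposited table gives them, 5′ to 3′ with T for U, and with the seed (bases 2 to 8) in capitals. The first set holds the 7 listed members of the copper-related families, of which Zma-miR528a, Gma-miR408d and Zma-miR398b had the largest differences of all listed miRNAs.
Bdi-miR397b: aTTGAGTGcagcgttgatgaa
Sbi-miR397: tCACCGGCgctgcactcaatt
Zma-miR398b: tGTGTTCTcaggtcgcccccg
Gma-miR408d: tGCACTGCctcttccctggc
Tae-miR408: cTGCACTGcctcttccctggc
Zma-miR528a: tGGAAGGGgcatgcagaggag
Bdi-miR528: cCTGTGCCtgcctcttccatt
None of these 7 shared its seed with another listed miRNA. Gma-miR408d matched Tae-miR408 over all of its 20 bases, and Tae-miR408 starts 1 base earlier, so the alignment can divide reads between the 2 entries. Sbi-miR397 could pair with Bdi-miR397b at 19 of 20 facing bases and Bdi-miR528 with Zma-miR528a at 17 of 19 (G-U pairs allowed, no gaps), as the opposite strands of a hairpin would.

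The second set holds the other 7 conserved miRNAs with the smallest unadjusted p values.
Osa-miR167e: aGATCATGttgcagcttcact
Bdi-miR168: cCCGCCTTgcaccaagtgaat
Bdi-miR827-5p: tTTTGTTGgttgtcatctaacc
Hvu-miR6197: tCTGTTCCtaaatgtaagacg
Ath-miR159c: tTTGGATTgaagggagctcct
Zma-miR166a: gGAATGTTgtctggctcgggg
Tae-miR395b: tGAAGTGTttgggggaactc
Only Ath-miR159c and Zma-miR166a had a seed that other listed miRNAs held as well. Of the 7, 3 could pair as opposite strands with a more abundant listed member of their family, Osa-miR167e with Gma-miR167g at 14 of 20 facing bases, Bdi-miR168 with Sbi-miR168 at 17 of 19 and Zma-miR166a with Ath-miR166b at 16 of 19. Bdi-miR827-5p could pair in the same way with Bdi-miR827-3p, which had the lower median in both groups of heads, at 18 of 20.

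No conserved miRNA passed the test for a response of EGA Bellaroi heads. In a limma fit of log2(RPM + 1) to all 48 heads, 0 of the 110 miRNAs (0% called) had an adjusted p under 0.05, the smallest being 0.46, and 10 (9.09%) had an unadjusted p under 0.05, 7 of them higher (6.36%) and 3 lower (2.73%) in stressed heads. In none of the 110 (0%) were the 6 stressed libraries all above or all below the 6 control libraries. The log2 change was above 0 for 89 of the 110 (80.9%), with a median of 0.33. When the libraries were scaled to each other by median ratios, which lowered the median by 0.28 to 0.06, 62 (56.4%) were above 0, and again 0 passed the test. The summed RPM of all 110 was 16598 ± 3501 in stressed heads and 14520 ± 2688 in control heads (SD, n = 6 each), which did not differ beyond the spread (two-sided exact permutation test, p = 0.27).

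By the fold criteria of the study (ratio of mean RPM above 1.5, at least 10 RPM in 1 group, no test), 19 of the 110 miRNAs passed (17.3%), 16 higher (14.5%) and 3 lower (2.73%) in stressed heads. Of the 19, 6 also had an unadjusted p under 0.05. In 3 of the 19 a single library held more than 50% of the summed RPM of the higher group, Gma-miR166j with 67.5% in stressed 1-a, Bdi-miR5200 with 52.0% in stressed 1-b and Tae-miR395b with 75.0% in control 2-a. With the median-ratio scaling 19 passed as well, but 8 higher and 11 lower, and 11 were shared with the first 19. Without the stressed library 2-b, 12 passed. The spread of the 110 changes by the role of the family is drawn next.

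**Figure D1:**
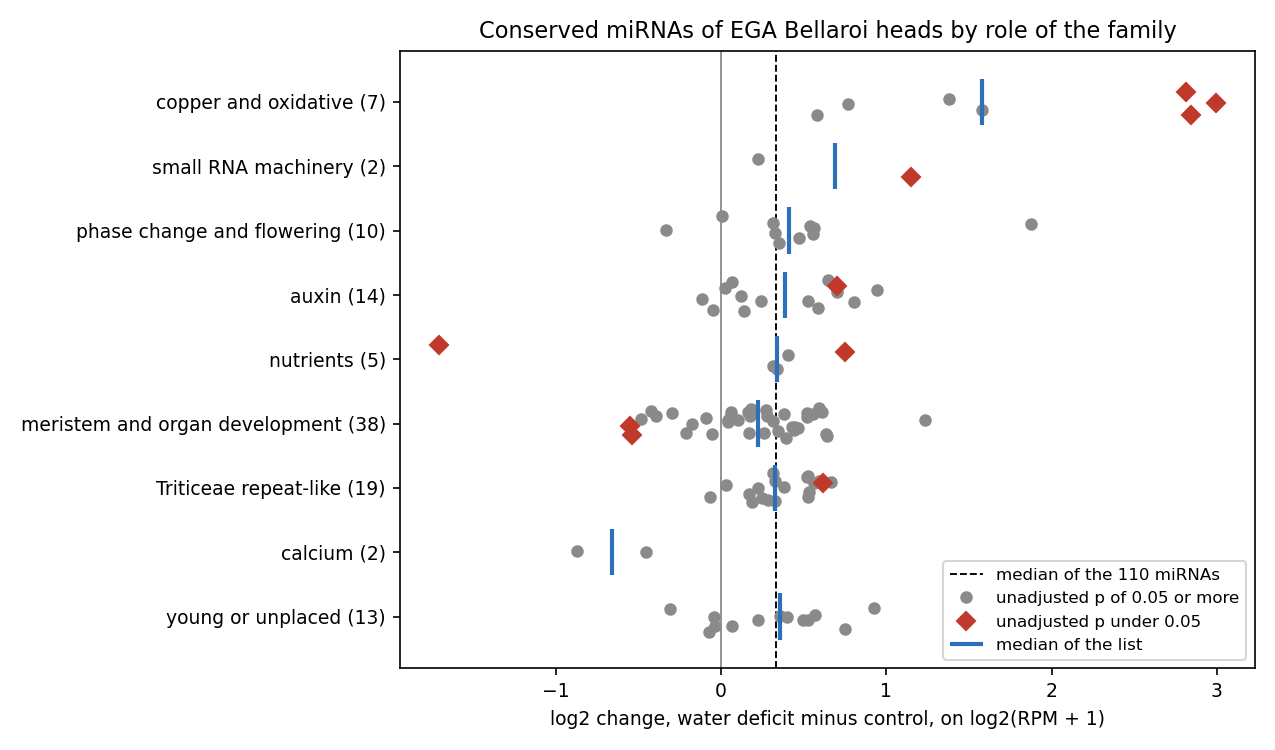
Each point is 1 of the 110 conserved miRNAs, placed by its log2 change (water deficit minus control, on log2(RPM + 1), x axis) and by the role of its family (y axis, number of miRNAs in brackets). Blue bars are the medians of the lists, the dashed line is the median of all 110 (0.33) and red diamonds mark the 10 miRNAs with an unadjusted p under 0.05; the copper and oxidative list reaches furthest to the right, with 3 diamonds between 2.82 and 2.99.

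The copper-related miRNAs had the 3 largest differences of the 110. All 7 listed members had a log2 change above 0, beside 80.9% of all 110, with a median of 1.58 beside 0.33. With the median-ratio scaling all 7 were above 0 too, beside 56.4% of all 110, with a median of 1.23 beside 0.06. None of the 7 passed limma. An unadjusted p under 0.05 was found for 3 (9.09% of all 110), and 4 passed the fold criteria (17.3% of all 110). The 7 are not independent, since the miR408 entries can share reads and the miR397 and miR528 pairs could be opposite strands. Their summed level was 47.1 to 1033 RPM (median 904) in stressed heads and 28.5 to 767 RPM (median 45.2) in control heads, so the groups overlapped.

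Zma-miR528a, which in rice targets the L-ascorbate oxidase transcript, had a lowest, median and highest level of 6.68, 193 and 249 RPM in stressed heads, against 0.970, 2.65 and 122 RPM in control heads. The 4 stressed libraries 1-a, 2-a, 2-b and 2-c were above every control library, and stressed 1-b and 1-c lay between the 4 low control libraries and the high controls 2-b and 2-c. Its log2 change was 2.99 ± 1.23 (SE, unadjusted p = 0.019, limma adjusted p = 0.46), with means 3.59-fold apart. Without the 2 stressed libraries under 1 M reads, 1-a and 2-b, the log2 change was 2.28 (limma, unadjusted p = 0.11).

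Zma-miR398b, which in Arabidopsis silences the copper/zinc superoxide dismutases, had 3.34, 49.3 and 143 RPM (lowest, median, highest) in stressed heads and 0.323, 1.70 and 40.4 RPM in control heads. All 6 stressed libraries were above the control median, and 3 of them above every control. The log2 change was 2.82 ± 1.06 (SE, unadjusted p = 0.011, limma adjusted p = 0.46), and over the 12 fits that each left out 1 library it ranged between 2.42 and 3.43.

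Gma-miR408d, whose family targets plantacyanin and laccase transcripts, had 2.23, 98.3 and 217 RPM in stressed heads and 0.323, 2.97 and 32.8 RPM in control heads. The same 4 stressed libraries were above every control, while stressed 1-c, at the lowest value, was below the control median. With a ratio of means of 8.81 it was the furthest of the 16 higher by the fold criteria, and its log2 change was 2.84 ± 1.24 (SE, unadjusted p = 0.027, limma adjusted p = 0.46). Without the 2 stressed libraries under 1 M reads, which hold its 2 highest values, the log2 change was 1.73.

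Bdi-miR397b, the laccase regulator and the most abundant of the list, had 34.5, 472 and 558 RPM in stressed heads and 23.6, 39.6 and 581 RPM in control heads. No stressed library was above the highest control, 2-b, and the log2 change was 1.58 ± 0.79 (SE, unadjusted p = 0.051, limma adjusted p = 0.46). The 3 remaining members stayed under 20 RPM in all 12 libraries, with log2 changes of 0.58 (Sbi-miR397), 0.77 (Bdi-miR528) and 1.38 (Tae-miR408).

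The same libraries were high or low in the more abundant members of the list. Bdi-miR397b, Zma-miR398b, Gma-miR408d and Zma-miR528a were each lower in control 1-a, 1-b, 1-c and 2-a than in control 2-b and 2-c, and each lower in stressed 1-b and 1-c than in the other 4 stressed libraries. The share of the 7 in all conserved miRNA reads was 0.415 to 6.33% in stressed heads and 0.247 to 5.24% in control heads. Of the flag leaf marks, which the copper-related Zma-miR398b belongs to, all 4 together had a median of 184 RPM in stressed and 27.9 RPM in control heads, Osa-miR1432 alone 5.05 RPM in stressed and 6.42 RPM in control heads and Bdi-miR827-5p 2.51 RPM in stressed and 0.628 RPM in control heads, and no mark was at 0 in every head. The part of leaf tissue in these differences was not tested, and in whole heads a different mix of cells cannot be told apart from a different level per cell.

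**Figure D2:**
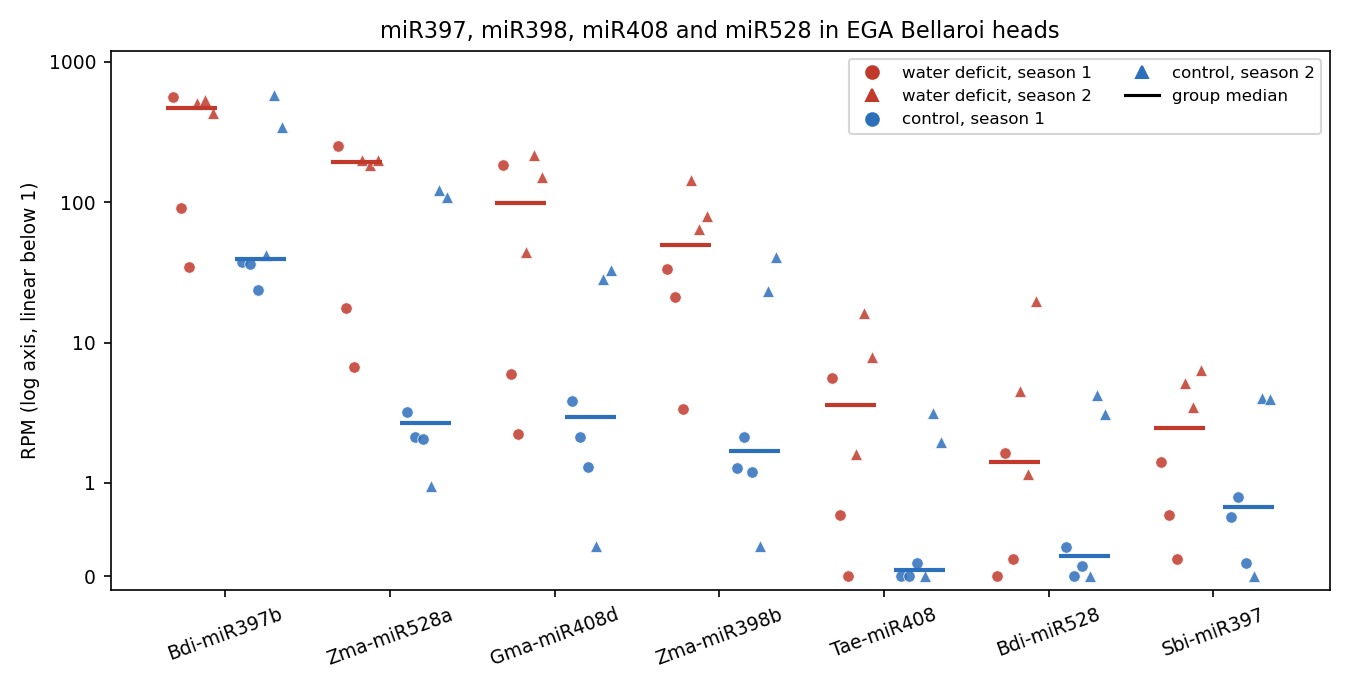
RPM (y axis, log scale that is linear below 1) of the 7 listed miR397, miR398, miR408 and miR528 members in each of the 6 stressed heads (red, left) and 6 control heads (blue, right). Circles are season 1, triangles season 2 and bars group medians. The median of Zma-miR528a is 193 RPM in stressed and 2.65 RPM in control heads. In the 4 abundant members the control triangles of 2-b and 2-c lie above stressed 1-b and 1-c. Every control but 1-c is above the lowest stressed library in Bdi-miR397b, and control 1-a is above it in Gma-miR408d as well.

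Another 4 miRNAs with an unadjusted p under 0.05 were higher in stressed heads, all at low levels. Osa-miR167e belongs to the family that targets the auxin response factors ARF6 and ARF8, but its seed differs from that of Gma-miR167g, its possible opposite strand. It had the smallest p of all, with 0.557, 1.52 and 2.21 RPM (lowest, median, highest) in stressed heads and 0.176, 0.517 and 0.842 RPM in control heads. Only stressed 1-c was within the control range, but the values rest on 25 reads in stressed and 30 reads in control heads. Its log2 change was 0.70 ± 0.26 (SE, unadjusted p = 0.0084, limma adjusted p = 0.46).

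Bdi-miR168 is of the family that targets the ARGONAUTE1 transcript of the miRNA machinery itself, but its seed differs from that of Sbi-miR168, its possible opposite strand. It had 5.75, 14.3 and 22.0 RPM in stressed heads and 2.63, 4.798 and 13.8 RPM in control heads. All 6 stressed libraries were above the control median and 3 above every control. The log2 change was 1.15 ± 0.49 (SE, unadjusted p = 0.023, limma adjusted p = 0.46). The more abundant Sbi-miR168 had medians of 76.1 RPM in stressed and 78.9 RPM in control heads, with a log2 change of 0.22.

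Bdi-miR827-5p, of a family tied to phosphate supply, had 0.658, 2.51 and 3.48 RPM in stressed heads and 0, 0.628 and 2.12 RPM in control heads. The 2 groups overlapped in stressed 1-b and 1-c, and the log2 change was 0.75 ± 0.31 (SE, unadjusted p = 0.019, limma adjusted p = 0.46). Hvu-miR6197, one of the Triticeae miRNAs that resemble transposon repeats, had medians of 2.51 RPM in stressed and 1.26 RPM in control heads and a log2 change of 0.62 ± 0.30 (SE, unadjusted p = 0.043, limma adjusted p = 0.46).

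There were 3 miRNAs with an unadjusted p under 0.05 and a lower mean in stressed heads. Tae-miR395b, of the family that targets ATP sulfurylases and a sulfate transporter, had 0, 9.83 and 10.9 RPM in stressed heads and 1.77, 33.4 and 370 RPM in control heads. All 6 stressed libraries were below the control median, but the control libraries 1-a and 1-c, at 1.91 and 1.77 RPM, were lower than 5 of the stressed ones. The 0 in stressed 1-a allows up to 4.204 RPM at that depth (3 reads, counting error only). Its log2 change was -1.71 ± 0.78 (SE, unadjusted p = 0.035, limma adjusted p = 0.46), and without control 2-a it was -0.90 (unadjusted p = 0.22).

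Ath-miR159c had 9.27, 15.6 and 18.6 RPM in stressed heads and 16.6, 18.9 and 34.2 RPM in control heads. All 6 stressed libraries were below the control median, and the log2 change was -0.55 ± 0.25 (SE, unadjusted p = 0.032, limma adjusted p = 0.46). It differs at 2 of 21 bases from Tae-miR159b, the most abundant conserved miRNA of control heads, which had 1369.7, 2219 and 3090 RPM in stressed heads and 1837, 2391 and 4546 RPM in control heads and a log2 change of -0.30 ± 0.23 (SE).

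Zma-miR166a had 15.4, 21.2 and 25.3 RPM in stressed heads and 22.5, 32.5 and 36.3 RPM in control heads. Only control 2-c lay within the range of the stressed libraries. The log2 change was -0.54 ± 0.27 (SE, unadjusted p = 0.048, limma adjusted p = 0.46), and with the median-ratio scaling it was -0.89 with the smallest p of the 110 (unadjusted p = 0.0033). Ath-miR166b, which targets the HD-ZIP III transcripts, had the higher median in stressed heads, with 1649, 2072 and 2641 RPM in stressed heads, against 722, 1617 and 2208 RPM in control heads, and a log2 change of 0.52 ± 0.26 (SE, unadjusted p = 0.055, limma adjusted p = 0.46). With the median-ratio scaling the change of Ath-miR166b was 0.16 (limma, unadjusted p = 0.24).

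Among the families of phase change and flowering, 9 of 10 listed miRNAs had a log2 change above 0, beside 80.9% of all 110. The median was 0.41 beside 0.33 over all 110, and 0 had an unadjusted p under 0.05. With the median-ratio scaling 7 of the 10 were above 0, with a median of 0.12 beside 0.06 over all 110. Bdi-miR5200, which in Brachypodium cuts the transcripts of the florigen FT and which is also one of the flag leaf marks named above, was the furthest, with 10.4, 63.7 and 391.6 RPM in stressed heads and 0.849, 9.66 and 143 RPM in control heads. All 6 stressed libraries were above the control median and 2 above every control, and the log2 change was 1.87 ± 0.93 (SE, unadjusted p = 0.050, limma adjusted p = 0.46). Ath-miR156b, of the family that holds back SPL factors, had 172.3, 306 and 380 RPM in stressed heads and 94.1, 183 and 305 RPM in control heads, with a log2 change of 0.55 ± 0.30 (SE, unadjusted p = 0.068, limma adjusted p = 0.49). Zma-miR156k, which differs from Ath-miR156b at 1 of 20 bases, rested on 31 reads in stressed and 58 reads in control heads, with a log2 change of 0.56 ± 0.30 (SE).

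The auxin-related families (miR160, miR167 and miR393) had a median log2 change of 0.38 over 14 miRNAs, 12 of them above 0, and of 0.04 with the median-ratio scaling, where 7 were above 0. Ath-miR160a, an auxin response factor regulator, had 7.01, 9.97 and 14.0 RPM in stressed heads and 1.29, 6.34 and 12.1 RPM in control heads, and its log2 change of 0.80 ± 0.53 (SE) did not exceed the spread (unadjusted p = 0.14, limma adjusted p = 0.51). Gma-miR393h, whose family targets the TIR1 auxin receptors, had 18.9, 38.0 and 49.9 RPM in stressed heads and 2.46, 23.8 and 46.3 RPM in control heads, with a log2 change of 0.94 ± 0.70 (SE). Gma-miR167g, among the 6 most abundant in control heads, had a log2 change of -0.05 with a 95% interval of -0.54 to 0.44.

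The 38 miRNAs of meristem and organ development had a median log2 change of 0.22, with 28 above 0, and of -0.11 with the median-ratio scaling, with 16 above 0, so no direction of the list can be given. Bdi-miR394, of a family that targets an F-box transcript, had the largest change of the list, with 35.8, 67.3 and 94.95 RPM in stressed heads and 5.97, 29.1 and 88.4 RPM in control heads and a log2 change of 1.23 ± 0.74 (SE, unadjusted p = 0.10, limma adjusted p = 0.51). The 9 members of miR159 had a median of -0.09 (4 above 0), the 14 of miR166 0.22 (11 above 0), the 4 of miR319 0.05 (3 above 0) and the 5 of miR396 0.46 (5 above 0), where with the median-ratio scaling 1, 6, 0 and 5 were above 0. Bdi-miR396a had 1637, 3257 and 3929 RPM in stressed heads and 846, 1942 and 4139 RPM in control heads, which is a log2 change of 0.59 ± 0.53 (SE, unadjusted p = 0.27, limma adjusted p = 0.60). Ath-miR396b had a log2 change of 0.56 ± 0.53 (SE) and Osa-miR396f of 0.39 ± 0.24 (SE). Bdi-miR319b, the TCP regulator that marks the head, had 475, 720 and 770 RPM in stressed heads and 215, 715 and 1197 RPM in control heads, with a log2 change of 0.18 and a 95% interval of -0.54 to 0.91. Osa-miR166k had a log2 change of 0.17 ± 0.29 (SE).

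The 19 repeat-like Triticeae miRNAs had 18 changes above 0 (80.9% over all 110) and a median of 0.33, the same as that of all 110 to 2 decimals. With the median-ratio scaling the 19 had 13 changes above 0 and a median of 0.09. Hvu-miR5049d was the furthest of them, with 11.8, 16.6 and 28.5 RPM in stressed heads and 2.91, 12.9 and 17.8 RPM in control heads and a log2 change of 0.67 ± 0.36 (SE, unadjusted p = 0.071, limma adjusted p = 0.49). The next values are of miRNAs that were also measured by qPCR in the study, which were named for that reason. Osa-miR5071 had a log2 change of 0.92 ± 0.65 (SE), Bdi-miR5054 of 0.40 ± 0.53 (SE) and Ath-miR167d of 0.06 ± 0.50 (SE), none beyond its spread. In Ath-miR167d, stressed 1-a alone held 47.2% of the summed RPM of its group. The calcium-related pair Osa-miR1432 and Sbi-miR1432 had log2 changes of -0.45 and -0.87, and the 5 nutrient-related miRNAs (miR395, miR399, miR827) ranged up to 0.75.

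By length, the 66 miRNAs of 21 nt had a median log2 change of 0.42 and the 17 of 20 nt 0.14, while the 9 of 24 nt had 0.33. By first base, the 67 that start with T (U in the RNA) had a median of 0.41, the 17 with A 0.29, the 16 with C 0.27 and the 10 with G -0.01. These medians are descriptions, since members of a family share length, first base and reads.

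The 2 seasons gave different pictures, although no difference between them passed the test. With 3 against 3 libraries in each season, the median log2 change was 0.61 in season 2 (89 of 110 above 0) and 0.03 in season 1 (59 above 0), and 50 miRNAs were above 0 in both. The difference of the changes, season 2 minus season 1, had 0 of 110 adjusted p values under 0.05 (0% called, limma) and 8 unadjusted ones (7.27%). Hvu-miR5049e had the smallest p, with a log2 change of 1.41 ± 0.45 (SE) in season 2 and of -0.35 ± 0.45 (SE) in season 1 (limma adjusted p of the difference 0.53). Next came Tae-miR395b, with -3.40 in season 2 and -0.01 in season 1, then Bdi-miR172a, which targets AP2 transcripts, with 1.47 and -0.53, Bdi-miR7757 with 1.70 and -0.65, and Bdi-miR827-3p with 1.17 and -0.54 (season 2 first in each). Fitted on season 2 alone, Tae-miR395b was the 1 miRNA to pass the test (limma adjusted p = 0.019, against a smallest adjusted p of any conserved miRNA of 0.15 to 0.96 over the other settings).

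The control libraries 2-a and 2-b carried many of the low values. Over the 61 miRNAs with a mean of at least 10 RPM, control 2-a held the lowest value of the 12 libraries for 25 and control 2-b for 15, while stressed 2-c held the highest for 16. Without control 2-a, 4 miRNAs had an unadjusted p under 0.05 in place of 10, and the median log2 change was 0.22. The summed RPM of the 110 was 18591 ± 3289 in stressed and 14039 ± 1268 in control heads of season 2 (SD, n = 3 each), at the smallest p that 3 against 3 allows (two-sided exact permutation test, p = 0.1), and 14604 ± 2810 in stressed and 15000 ± 3970 in control heads of season 1 (p = 0.8).

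**Figure D3:**
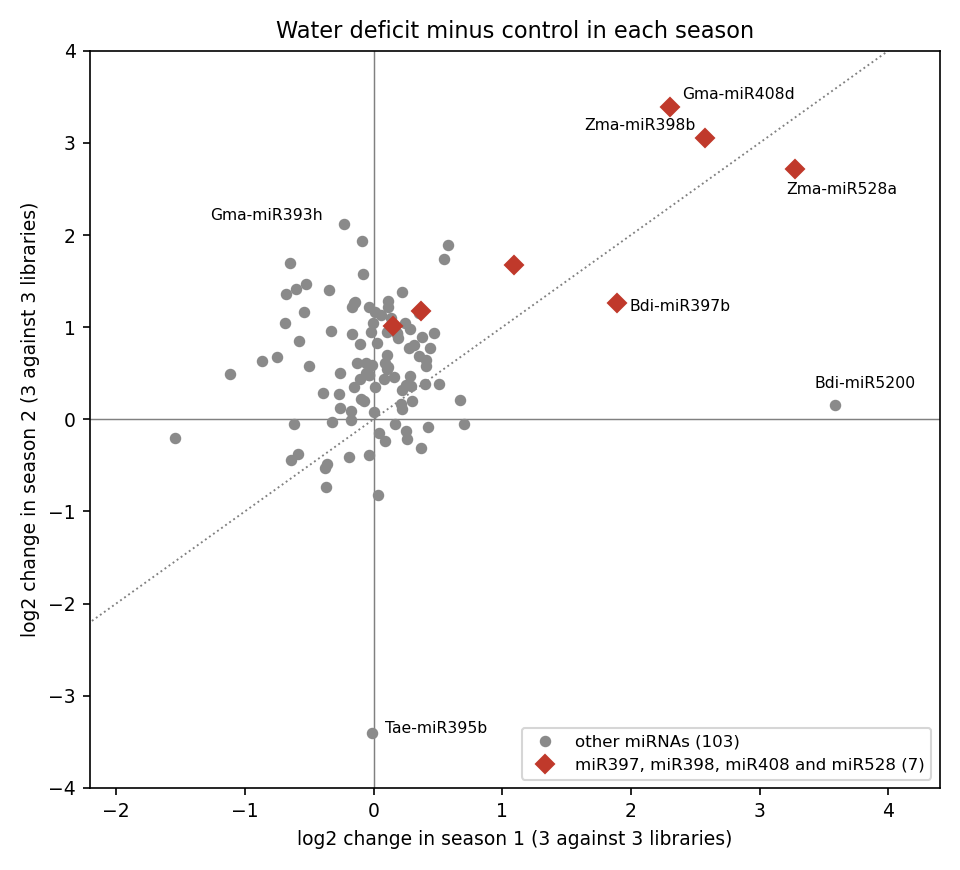
Log2 change (water deficit minus control) of each of the 110 miRNAs in season 1 (x axis) and season 2 (y axis), 3 against 3 libraries each, with the dotted line where both are equal. The copper-related miRNAs (red diamonds) lie above 0 in both seasons, Tae-miR395b at -3.40 in season 2 and -0.01 in season 1, Bdi-miR5200 at 0.16 in season 2 and 3.59 in season 1, and most of the other miRNAs spread around 0 in season 1 and above 0 in season 2.

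Among the hairpins of Approach #2, none passed the test either. These hairpins were placed on the survey sequence of bread wheat, whose D genome durum wheat lacks, and 47 lie on A, 59 on B and 53 on D genome sequences. With limma on the deposited log2 CPM, 0 (0% called) had an adjusted p under 0.05, the smallest being 0.56, and 10 (6.29%) had an unadjusted p under 0.05, 7 higher (4.4%) and 3 lower (1.89%) in stressed heads, with 0 (0%) whose groups did not overlap. The log2 change was above 0 for 124 (78%), with a median of 0.40. Medians were 0.30 over A, 0.47 over B and 0.35 over D genome hairpins.

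Most of these hairpins had few reads, and the deposited scale sets the value of a hairpin without reads by the depth of the library. In the file 0.5 reads were added before scaling, so a hairpin with 0 reads stands at -3.20 to -0.14 log2 CPM (median -2.84) in stressed heads and at -5.89 to -2.24 (median -2.66) in control heads, and 23 to 79 hairpins of a stressed and 15 to 60 of a control library stood there. The median log2 change was 0.83 over the 53 hairpins with fewer than 20 reads in the 12 libraries, 0.40 over the 68 with 20 or more but fewer than 200 and 0.12 over the 38 with 200 or more. When the recovered reads were put on a scale with 1 CPM added in every library, the median over all hairpins was 0.05, 102 were above 0, and 1 was higher and 4 were lower in stressed heads at an unadjusted p under 0.05, with 0 past the adjusted threshold (limma).

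**Figure D4:**
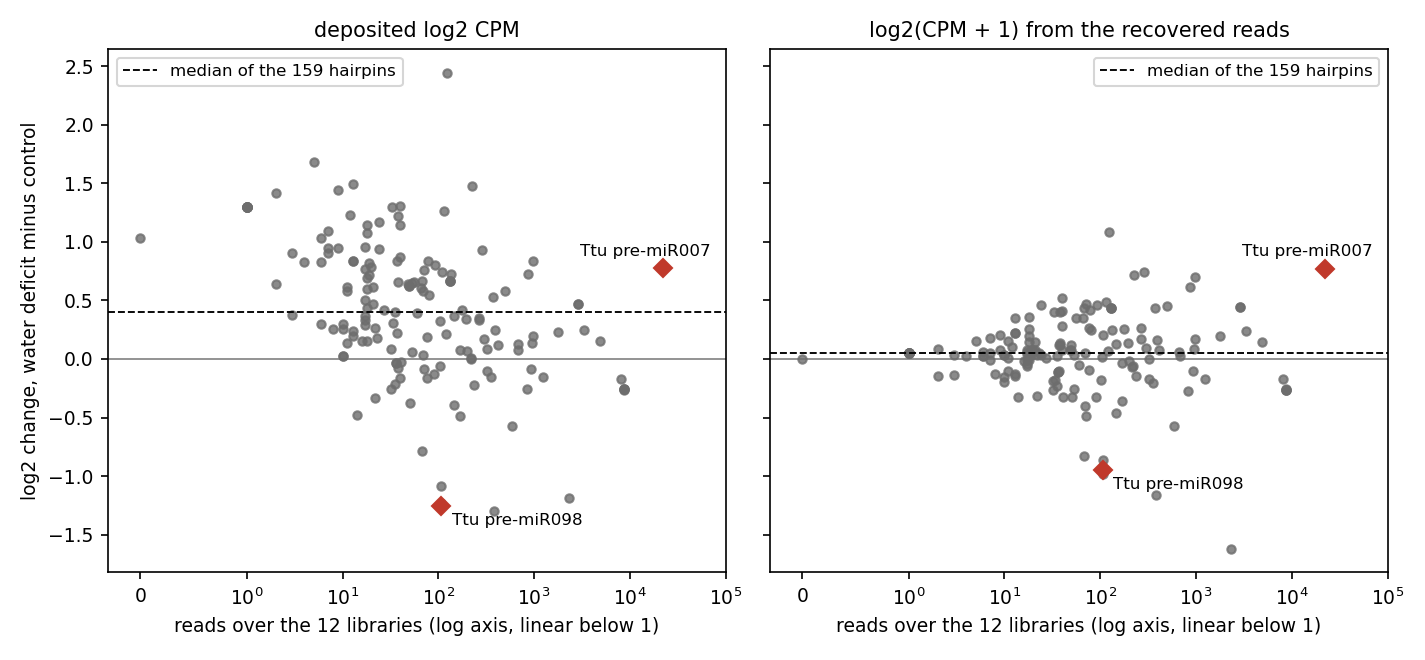
Log2 change (water deficit minus control, y axis) of the hairpins against their reads over the 12 libraries (x axis, log scale that is linear below 1), on the deposited log2 CPM (left) and on log2(CPM + 1) from the recovered reads (right). The dashed medians are 0.40 on the left and 0.05 on the right; Ttu pre-miR007 and Ttu pre-miR098 (red diamonds) keep their sides.

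The 4 mature sequences below are those that the study's target table gives for hairpins described here, with the seed in capitals, and 0 of the 110 conserved miRNAs shares a seed with them.
Ttu-miR007: tGTAATAAactagtcttcaga
Ttu-miR008: tAAGGAAAagaaggagaaacg
Ttu-miR038: tTTGTGATttgtgaatgccacgtg
Ttu-miR109: gAGAGCTActcaaatgttcaa

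Ttu pre-miR007, on chromosome 1A, was the most abundant hairpin of control heads, with 8.49, 8.99 and 9.45 log2 CPM (lowest, median, highest) in stressed heads and 5.93, 8.44 and 9.16 in control heads. The control library 2-a, with 204 reads, was the low one, and 3 of the other control libraries were within the stressed range. Its log2 change was 0.78 ± 0.39 (SE, unadjusted p = 0.052, limma adjusted p = 0.56), and without control 2-a it was 0.33. By season the change was 1.597 in season 2 and -0.05 in season 1.

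Ttu pre-miR098, on chromosome 4B, had the smallest p, with -1.29, 0.06 and 1.11 log2 CPM in stressed heads and 0.62, 1.14 and 2.01 in control heads. It had 21 reads over the stressed and 86 over the control libraries, and 0 in stressed 1-a and 2-b, where 0 reads allow up to 5.44 and 2.83 CPM. The log2 change was -1.25 ± 0.41 (SE, unadjusted p = 0.0038, limma adjusted p = 0.56), and it was -0.95 with 1 CPM added in every library (unadjusted p = 0.0016) and -0.97 without the 2 stressed libraries under 1 M reads (unadjusted p = 0.037). After centring each library on its median hairpin it was the 1 hairpin to pass the test, at a log2 change of -1.63 (limma adjusted p = 0.025, against a smallest adjusted p of any hairpin of 0.16 to 0.94 over the other settings). Ttu pre-miR016, on chromosome 1B, had equal reads in 8 of the 12 libraries and differed by at most 1 read in the rest, so they measure nearly the same reads.

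Ttu pre-miR150, on chromosome 7D, had 13 reads in stressed and 93 in control heads, of which control 1-b and 1-c held 26 and 46, and a log2 change of -1.23 ± 0.51 (SE, unadjusted p = 0.019, limma adjusted p = 0.56). The 7 hairpins that were higher at an unadjusted p under 0.05 had 4 to 37 reads over the 6 stressed libraries. Ttu pre-miR109 was one of them, with 7 reads in stressed and 6 in control heads and a log2 change of 1.497 ± 0.64 (SE, unadjusted p = 0.023, limma adjusted p = 0.56), or 0.35 with 1 CPM added, and it shared its reads with Ttu pre-miR119 in 11 of 12 libraries. Ttu pre-miR019 and Ttu pre-miR095 had equal reads in 8 of 12 libraries, with log2 changes of 1.29 ± 0.55 and 1.22 ± 0.55 (SE). Ttu pre-miR136 had 0.80 ± 0.39 (SE), and Ttu pre-miR069 and Ttu pre-miR073 had 1.68 and 1.30, which with 1 CPM added were 0.15 and 0.28. Ttu pre-miR090, which was not among the 7 (limma adjusted p = 0.56), had 1.42, or 0.09 with 1 CPM added.

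Of the remaining named hairpins, Ttu pre-miR038 on chromosome 2A had 5.47, 5.74 and 6.10 log2 CPM in stressed heads and 4.33, 5.67 and 6.16 in control heads, with a log2 change of 0.25 and a 95% interval of -0.43 to 0.93. Ttu pre-miR008 had 9 reads in stressed and 9 in control heads, where the control libraries included the deepest one. Its log2 change was 1.14 (limma, unadjusted p = 0.11), or 0.36 with 1 CPM added. Ttu pre-miR033, Ttu pre-miR036 and Ttu pre-miR045, next in level to Ttu pre-miR007, had the same reads in at least 11 of the 12 libraries and a log2 change of -0.26 each.

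The response of EGA Bellaroi heads was then set against that of the heads of the other genotypes and of the flag leaves of EGA Bellaroi, as a difference of log2 changes tested in 1 fit. All 4 comparisons share the 12 EGA Bellaroi head libraries. Against the heads of Yawa, a genotype classed as tolerant, 57 of 110 conserved miRNAs (51.8%) differed with an adjusted p under 0.05 (limma), all with the higher change in EGA Bellaroi. The median change was 0.33 in EGA Bellaroi heads and -0.99 in Yawa heads. The stressed Yawa heads 1-a, 2-b and 2-c stood apart, with listed miRNAs that summed to 5514, 6428 and 7879 RPM, beside 16001 to 17125 RPM in the other 3 stressed and 15259 to 22398 RPM in the 6 control Yawa heads. Without these 3 libraries, a choice made after seeing the data, 0 of 110 differed (limma, 12 at an unadjusted p under 0.05), and the median change in Yawa heads was -0.21. Only 3 stressed Yawa heads were then left, which weakens the test, so the 0 does not show equal responses. The median difference of the responses was 0.55, beside 1.29 with all libraries. What set the 3 low libraries apart was not tested. With the median-ratio scaling, where the medians were 0.06 in EGA Bellaroi and -0.20 in Yawa heads, 4 miRNAs differed, 2 with the higher and 2 with the lower change in EGA Bellaroi, and 2 of the 4 were among the 57.

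Bdi-miR827-5p had the smallest p, with a change of 0.75 ± 0.31 in EGA Bellaroi heads and -1.35 ± 0.31 in Yawa heads (SE), a difference of 2.10 ± 0.44 (SE, limma adjusted p = 0.0019). Its level was low, at 0 to 3.48 RPM in the EGA Bellaroi heads. Bdi-miR168 had a log2 change of 1.15 ± 0.49 in EGA Bellaroi and -1.87 ± 0.49 in Yawa heads (SE), a difference of 3.01 (limma adjusted p = 0.0040). Ath-miR156b, Hvu-miR5049d and Zma-miR166l followed with differences of 1.65, 1.92 and 1.90 (limma adjusted p = 0.0097 each). With the median-ratio scaling Bdi-miR827-5p and Bdi-miR168 still passed the test, with differences of 1.65 and 2.14 (limma adjusted p = 0.016 and 0.019), and Ath-miR156b, Hvu-miR5049d and Zma-miR166l did not, with 0.23, 0.75 and 0.49 (limma adjusted p = 0.54, 0.11 and 0.16). Without the 3 low libraries the 5 differences were 0.84 to 1.69, and none passed (limma adjusted p = 0.11 to 0.46).

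Against the heads of Tamaroi, also classed as tolerant, 0 of 110 differed (0% called, limma) and 10 (9.09%) did at an unadjusted p under 0.05, and against those of Tjilkuri, classed as sensitive, 0 (0%) and 5 (4.55%). The smallest p against Tamaroi was that of Osa-miR167e, with 0.70 in EGA Bellaroi and -0.45 in Tamaroi heads (limma adjusted p of the difference 0.27). Zma-miR528a stood at 2.99 ± 1.23 in EGA Bellaroi and -1.42 ± 1.23 in Tamaroi heads (SE), and Zma-miR398b at 2.82 ± 1.06 and -0.65 ± 1.06 (SE, limma adjusted p of both differences 0.43). Against Tjilkuri it was Bdi-miR5200 that had the smallest p, with 1.87 ± 0.93 in EGA Bellaroi and -1.50 ± 0.93 in Tjilkuri heads (SE, limma adjusted p of the difference 0.84). In Tjilkuri heads the copper-related miRNAs also had higher medians under stress, for example Zma-miR528a with 58.0 RPM in stressed and 11.4 RPM in control heads. Zma-miR398b had medians of 21.6 and 8.19 RPM there. The means of both were lower in stressed Tjilkuri heads (73.0 beside 88.8 RPM and 28.8 beside 29.9 RPM).

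Against the flag leaves of EGA Bellaroi, which came from the same plants by their plant numbers, 0 of 110 differed (0% called, limma) and 1 (0.909%) did at an unadjusted p under 0.05, Hvu-miR5049d with 0.67 ± 0.36 in heads and -0.41 ± 0.35 in flag leaves (SE). The copper-related miRNAs were more abundant in the leaves, for example Zma-miR528a with medians of 675 RPM in stressed and 167.1 RPM in control flag leaves, beside 193 RPM in stressed and 2.65 RPM in control heads. Of the hairpins, 1 (0.629%) differed from the response of Yawa heads, Ttu pre-miR060 with 0.73 ± 0.48 in EGA Bellaroi and -2.09 ± 0.48 in Yawa heads (SE, limma adjusted p of the difference 0.021), and 32 (20.1%) did so at an unadjusted p under 0.05. Without the 3 low stressed Yawa libraries no hairpin differed (limma, 9 at an unadjusted p under 0.05), and the difference of Ttu pre-miR060 was 1.22 (limma adjusted p = 0.68). None differed from Tamaroi heads (0%, and 5 or 3.14% unadjusted), Tjilkuri heads (0%, and 18 or 11.3%) or EGA Bellaroi flag leaves (0%, and 10 or 6.29%), and none between the seasons (0%, and 8 or 5.03%, limma). With the plant as a random block, heads and flag leaves differed in 0 conserved miRNAs and 0 hairpins, with 5 and 12 at an unadjusted p under 0.05, and the smallest limma adjusted p of the hairpins was 0.062 (Ttu pre-miR098).

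**Figure D5:**
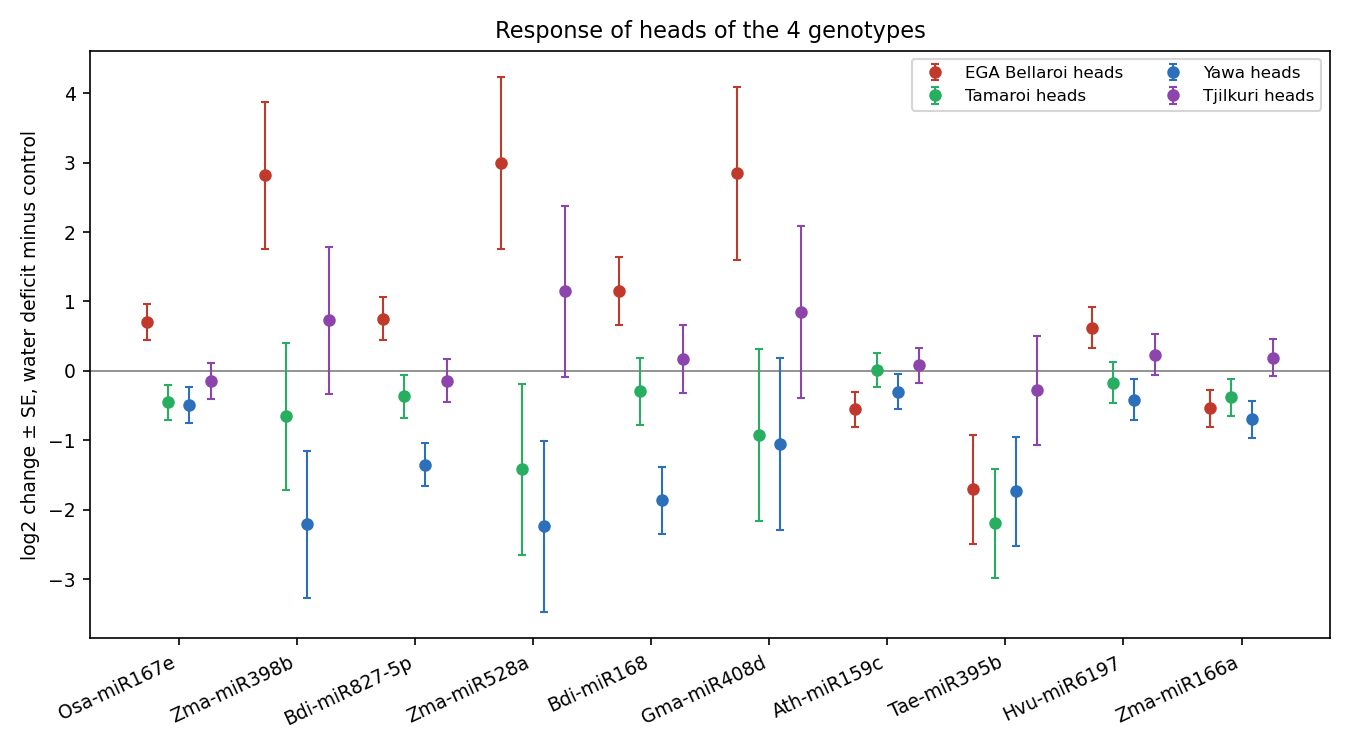
Log2 change (water deficit minus control, y axis) with its SE in the heads of EGA Bellaroi, Tamaroi, Yawa and Tjilkuri (6 against 6 libraries each) for the 10 conserved miRNAs with the smallest p in EGA Bellaroi heads (x axis). EGA Bellaroi is above the other genotypes in the 7 miRNAs with a change above 0, for example at 2.82 for Zma-miR398b beside -0.65 in Tamaroi. These 10 were chosen by their values in EGA Bellaroi. The median of Zma-miR398b was also higher in stressed (21.6 RPM) than in control (8.19 RPM) Tjilkuri heads.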

How the data were processed

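Small RNA libraries of EGA Bellaroi heads were compared between the water deficit stress group and the control group, with the remaining libraries used as stated. The deposited RPM values were made by the authors by aligning trimmed reads with mature plant miRNAs of miRBase in CLC Genomics Workbench, allowing mismatches, so near-identical members can divide reads, and by scaling to all small RNA reads of a library. The deposited log2 CPM values were made by the authors for hairpins found by perfect hits of small RNA reads on the survey sequence of bread wheat (RNAFold, miRcheck), and from the values 0.5 reads had been added; no source used here says how a read was assigned to a hairpin. Values in the RPM file are whole multiples of 1 read, which gave the depth of each library (0.714 to 36.1 M reads for the 12 heads). All columns were matched to labelled samples.

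Changes were computed as water deficit minus control on log2(RPM + 1), which understates changes of low miRNAs, and on the log2 CPM as deposited. Both were fitted with limma 3.58.1 (R 4.3.3) with trended variances, 48 head libraries in 8 groups, and Benjamini-Hochberg adjustment over all features of a file at 0.05. For the flag leaf contrast all 96 libraries were fitted. The fold criteria took means over 6 libraries with 0 set to 0.01. Single values were compared with exact permutation tests (scipy 1.17.1). Limits of 0 counts cover counting error only, and the 95% intervals of log2 changes are those of limma, from the spread between libraries. The fits were tested on simulated data.

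Named were the 15 conserved miRNAs and 12 hairpins with the smallest p, the 6 and 4 most abundant in control heads, the member with the smallest p of each family of 3 or more, the miRNAs measured by qPCR in the study, all calls, features without overlap, 4 hairpins with a known mature sequence and the 5 smallest p values of each contrast, of which those that matter are printed. Bdi-miR394, Sbi-miR168, Gma-miR166j and the 1432 pair were added after their values were seen. The members, family lists, tissue marks and tests were chosen with earlier results of these data known. Alternatives changed the pseudocount, the filter, the scaling, the libraries fitted, the season, the replicate block and single libraries. The replicate labels name plants grown in a season and do not pair stressed with control plants. Count tests were not run.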

Additional observations from a re-analysis of the deposited data

Results flagged for a closer look

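In 9 of the 96 groups of 6 values that were checked, 1 library stood further from the rest than Dixon's 95% critical value for 6 samples, and chance gives about 1 in 20 such groups. On the log2(RPM + 1) scale, Zma-miR156k was highest in stressed 2-c at 1.98 and Gma-miR167g in stressed 2-c at 11.18. Lowest were Tae-miR395b in stressed 1-a at 0, Bdi-miR319b in stressed 1-c at 8.90, Bdi-miR5054 in stressed 2-a at 2.62 and Hvu-miR5049d in control 2-a at 1.97. Ttu pre-miR069 and Ttu pre-miR090 were lowest in control 1-c at -5.89 log2 CPM each, the value of 0 reads in that library, whose depth was the highest at 5.17 log2 M reads.

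The response of EGA Bellaroi heads differed from that of Yawa heads, by the limma contrast of both changes, for 57 conserved miRNAs and for 1 hairpin. The differences with the smallest p were 2.10 for Bdi-miR827-5p, 3.01 for Bdi-miR168, 1.65 for Ath-miR156b, 1.92 for Hvu-miR5049d and 1.90 for Zma-miR166l on the log2 scale, and 2.81 for Ttu pre-miR060. Of these, Bdi-miR827-5p and Bdi-miR168 also passed with the median-ratio scaling, and none passed without the 3 stressed Yawa libraries in which the listed miRNAs had a low sum.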

How the results depend on the processing

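No conserved miRNA passed under 24 of 25 settings and no hairpin under 23 of 24, with 3 to 24 conserved miRNAs and 2 to 21 hairpins at an unadjusted p under 0.05 (limma). The exceptions were 1 conserved miRNA (Tae-miR395b) in season 2 only and 1 hairpin (Ttu pre-miR098) with median centring. The fold criteria were passed by 8 miRNAs at a fold change above 2, by 10 in season 1 and by 38 in season 2, and by 12 (without stressed 2-b) to 27 (without control 2-c) when 1 library was left out, against 19 with all libraries. The 57 differences from Yawa heads were 4 with the median-ratio scaling and 0 without the 3 low stressed Yawa libraries. The 1 hairpin was then 0 as well, with only 3 stressed Yawa heads left in the fit. With the replicate block, 0 conserved miRNAs and 0 hairpins passed, and 12 and 8 had an unadjusted p under 0.05, but not every pair of equal labels had deviations correlated above 0.1 (-0.144 to 0.516 for miRNAs). Array weights, the limit of 1 M reads, the fixed addition of 1 CPM and the omission of the Yawa libraries were chosen after seeing the data. The tests of edgeR and DESeq2 were not run.

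Log2 changes of the miRNAs and hairpins named by the rule for EGA Bellaroi heads turned direction in the following cases, none of them past the adjusted threshold, and the cause was not tested. With the median-ratio scaling Bdi-miR319b was at -0.17, Osa-miR166k at -0.19 and Ath-miR167d at -0.28. In season 1 alone Gma-miR393h was at -0.23, Bdi-miR396a at -0.035, Osa-miR166k at -0.11, Ath-miR396b at -0.15, Ath-miR167d at -0.074, Osa-miR5071 at -0.091, Ttu pre-miR007 at -0.046, Ttu pre-miR033 at 0.26, and Ttu pre-miR036 and Ttu pre-miR045 at 0.27 each. In season 2 alone Gma-miR167g was at 0.29. Of the miRNAs added later, Sbi-miR168 was at -0.13 with the median-ratio scaling and -0.056 in season 1 alone. With array weights Ath-miR167d was at -0.13 and Bdi-miR5054 at -0.12. With libraries of at least 1 M reads Gma-miR167g was at 0.017 and Ath-miR167d at -0.18, and with median centring Ttu pre-miR038 was at -0.13. When 1 library was left out, Ath-miR167d ranged between -0.31 (without stressed 1-a) and 0.32, Bdi-miR319b between -0.11 (without control 2-b) and 0.38, Gma-miR167g between -0.19 and 0.035 (without control 1-b) and Osa-miR166k between -0.047 (without control 2-a) and 0.45. At the depth of stressed 1-a a miRNA with 0 reads could stand at up to 4.204 RPM, so low miRNAs are the least certain.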
